A study of Mus musculus with 3 samples.

Results

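The windows described here are the most accessible stretches of the mouse genome that lie away from protein-coding genes in 2 heart libraries. They were chosen by a rule on measured values: chromosomes 1 to 19 were cut into 2460754 windows of 1 kb, 1299899 of them overlapped no protein-coding gene body and lay more than 10 kb from every protein-coding transcript start, and these distal windows were ranked by the fragments pooled over the vehicle and sunitinib libraries. The first 50 were left out as possible artefact piles and the next 3000, ranks 51 to 3050, were kept, 0.231% of the distal windows. Since the pooled fragment count chose them, their high counts are a description and not a finding, and each comparison of the 2 libraries uses counts that entered the choice.

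The libraries come from single-nucleus multiome assays, of which the chromatin part, ATAC-seq, is analysed here: a transposase cuts open DNA, and each fragment carries the barcode of its nucleus. Hearts of wild-type mice were snap-frozen before nuclei were isolated. The series has 1 library of mice given vehicle (titled Control), 1 of mice given sunitinib (titled TKI), an inhibitor of several receptor tyrosine kinases used against cancer, and 1 of mice given sunitinib with Yoda1 (titled Yoda1), an agonist of the mechanosensitive ion channel PIEZO1. All 3 titles carry 3 months, with no word on whether that is an age or a time, and neither the number of hearts in a library nor the dose is given. With 1 library a group no difference has a replicate check, so no test is reported, and the 95% intervals printed below cover counting error only.

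Distal accessible windows often hold enhancers, stretches of DNA where transcription factors displace nucleosomes and from which a gene at some distance can be regulated. Which enhancers are open depends more strongly on the cell type than which promoters are open, so a heart assayed as a whole shows the enhancers of all its cell types at once. Other distal open sites are promoters of long non-coding RNAs and of microRNA genes, or sites of the insulator protein CTCF. An accessible window is not proof of an enhancer, and the nearest gene is not necessarily its target.

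A first view of the windows comes from the microRNA genes beside them, since their products are short enough to print. Of 919 microRNA genes searched in the RefSeq table (GRCm38.p6), 46 overlapped a distal window of the set or lay within 10 kb of one, and 7 overlapped one. Seen from the windows, 63 of the 2865 on the chromosomes searched, or 2.20%, lay within 10 kb of a microRNA gene, against 0.285% of every 50th distal window. The mature sequences below are shown because they belong to the clusters with the best-known roles. The capitals mark the seed, bases 2 to 8 from the 5′ end, by which a microRNA finds its targets. The miR-17-92 cluster promotes proliferation and contains 2 pairs with a shared seed, miR-17 with miR-20a and miR-19a with miR-19b.
miR-17-5p: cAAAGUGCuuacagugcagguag
miR-20a-5p: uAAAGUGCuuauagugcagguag
miR-18a-5p: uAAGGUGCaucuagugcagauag
miR-19a-3p: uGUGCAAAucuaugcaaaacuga
miR-19b-3p: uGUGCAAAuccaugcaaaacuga
miR-92a-3p: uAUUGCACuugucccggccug
miR-23a-3p: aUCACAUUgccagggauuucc
miR-27a-3p: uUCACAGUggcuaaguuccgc
miR-24-3p: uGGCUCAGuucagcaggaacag
miR-142a-3p: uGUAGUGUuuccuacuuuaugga
miR-21a-5p: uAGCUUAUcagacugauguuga
miR-148a-3p: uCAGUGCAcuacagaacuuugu
let-7i-5p: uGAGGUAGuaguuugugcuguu
let-7b-5p: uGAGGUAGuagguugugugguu
let-7d-5p: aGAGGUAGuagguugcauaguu
miR-193a-3p: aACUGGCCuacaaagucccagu
miR-193b-3p: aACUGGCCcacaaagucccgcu
The 3 let-7 sequences share one seed and so do miR-193a and miR-193b, although their genes lie on different chromosomes.

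The window beside the miR-17-92 cluster, chr14:115042001-115043000, overlaps the host transcript Mir17hg and ends 0.671 kb before the hairpin of miR-17. It held 246 fragments in the vehicle library and 348 in the sunitinib library, a log2 ratio of sunitinib to vehicle of 0.16 (-0.08 to 0.40) after scaling each library to 1000000 fragments (CPM). The hairpins of miR-23a, miR-27a and miR-24-2 lie inside chr8:84208001-84209000, with 88 and 118 fragments and a log2 ratio of 0.08 (-0.33 to 0.50). Both intervals include 0, and neither window was led by one class of nuclei by the rule given further on.

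The let-7 family, which restrains proliferation, had windows on 3 chromosomes. The hairpin of let-7i lies inside chr10:122985001-122986000, which was led by B-like nuclei and held 214 vehicle and 297 sunitinib fragments (0.13, -0.13 to 0.39). The window chr13:48545001-48546000, 8.89 kb from let-7d, held 291 and 348 (-0.08, -0.31 to 0.15), and chr15:85709001-85710000, 1.60 kb from let-7b, held 107 and 133 (-0.03, -0.40 to 0.36). The window chr16:13448001-13449000, 0.523 kb from miR-193b, held 67 and 94 (0.15, -0.32 to 0.62), and the hairpin of miR-193a lies partly inside a window with a ratio of 0.18 (-0.08 to 0.45). The intervals of these 5 include 0, and that of the let-7d window lies below 0.24, the median ratio of all accessible windows.

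Other windows beside microRNA genes were higher in the sunitinib library. The window chr11:87749001-87750000, 6.86 kb from miR-142, which is restricted to blood cells, held 75 vehicle and 161 sunitinib fragments, a log2 ratio of 0.76 (0.36 to 1.18), and was highest in myeloid-like nuclei. The window chr11:86581001-86582000, 2.07 kb from miR-21a, held 110 and 194 fragments, a log2 ratio of 0.48 (0.13 to 0.83), and was also highest in myeloid-like nuclei. The window chr6:51270001-51271000, 0.091 kb from miR-148a, held 61 and 115 fragments, a log2 ratio of 0.57 (0.12 to 1.05). These 3 were higher in the sunitinib library beyond counting error, but the intervals of the last 2 include 0.24, the median ratio of all accessible windows. Among the windows beside the other microRNA genes, 6 more had intervals above 0. How many of all accessible windows had such an interval was not counted. The highest were chr16:91533001-91534000, 5.46 kb from miR-6367, with 53 and 143 fragments (1.08, 0.63 to 1.58), and the B-led chr8:84187001-84188000, 8.21 kb from miR-181d, of a family that acts in lymphocyte development, with 81 and 206 (1.00, 0.63 to 1.40). The other 4, beside miR-7688, miR-1839, miR-6363 and miR-6516, had ratios of 0.72 (0.37 to 1.09), 0.43 (0.19 to 0.68), 0.40 (0.17 to 0.64) and 0.35 (0.03 to 0.68). The intervals of the last 3 include 0.24.

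Promoters of non-coding genes give the second set of sequences. RefSeq promoters, 250 bases before to 50 after a transcript start, lay wholly inside 156 of the windows (164 promoters of GRCm38.p6). Printed first is the promoter of Mir1a-1hg, host of miR-1a-1, a microRNA of striated muscle, at chr2:180385354-180385653 on the + strand. It is shown because its window, chr2:180385001-180386000, had the highest ratio of cardiomyocyte-like to other nuclei. The promoter of Gm29952 (chr12:80273187-80273486, + strand) follows, since of the windows with a promoter its window had the highest ratio of T-like to other nuclei. Malat1 (chr19:5802623-5802922, - strand), one of the most abundant nuclear RNAs, was picked by name from the windows led by no single class. Its promoter has a GC content of 47% and 10 CG dinucleotides, below the medians of promoters in such windows given further on. Capitals mark matches to the motifs named after the sequences.
Mir1a-1hg: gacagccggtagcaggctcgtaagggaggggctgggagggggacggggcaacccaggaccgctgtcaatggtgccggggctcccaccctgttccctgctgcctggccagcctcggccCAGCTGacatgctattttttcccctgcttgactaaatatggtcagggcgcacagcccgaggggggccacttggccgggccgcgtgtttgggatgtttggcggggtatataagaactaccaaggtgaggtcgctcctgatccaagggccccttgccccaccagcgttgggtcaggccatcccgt
Gm29952: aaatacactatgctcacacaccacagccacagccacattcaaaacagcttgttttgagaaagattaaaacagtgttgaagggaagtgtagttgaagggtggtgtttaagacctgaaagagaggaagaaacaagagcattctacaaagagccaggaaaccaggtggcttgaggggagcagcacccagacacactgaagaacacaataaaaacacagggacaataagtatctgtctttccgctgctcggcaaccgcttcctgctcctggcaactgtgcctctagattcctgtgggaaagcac
Malat1: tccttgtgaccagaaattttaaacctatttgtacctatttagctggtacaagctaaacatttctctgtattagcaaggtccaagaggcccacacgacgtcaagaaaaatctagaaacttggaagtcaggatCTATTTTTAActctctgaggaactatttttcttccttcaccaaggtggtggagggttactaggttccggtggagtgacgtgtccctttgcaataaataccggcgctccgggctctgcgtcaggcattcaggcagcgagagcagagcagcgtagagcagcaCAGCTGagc
Searched on both strands were the letters of GATA factors (AGATAAG), ETS (CAGGAAGT), RUNX (TGTGGTTT), TCF7/LEF1 (CTTTGAAG or CTTTGATC), AP-1 (TGANTCA), TEAD (GGAATGT), E-box (CAGCTG), FOX (TGTTTAC), KLF/SP (GGGCGGGG), SOX (CCATTGTT), NFAT (TGGAAA), and MEF2, CTCF and SRF by their usual consensus. No matches overlapped in these promoters. The capitals are 1 E-box in Mir1a-1hg, and 1 MEF2 and 1 E-box match in Malat1. Gm29952 held none of the letters searched.

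Over the 164 promoters inside the windows, 38 (23.2%) held the E-box, against 16.3% of the 31396 promoters of the whole table. The E-box was present in 25 of 85 promoters in windows led by one cell class (29.4%) and in 13 of 79 in shared windows (16.5%). AP-1 matched 17 (10.4%, against 7.84%), NFAT 48 (29.3%, against 21.5%) and CTCF 5 (3.05%, against 0.573%). GATA, ETS and FOX matched 6, 5 and 6 promoters, at shares of 3.66%, 3.05% and 3.66% against 3.03%, 3.34% and 3.71%. The promoters in shared windows had a median GC content of 56.7% and a median of 13 CG dinucleotides, those in class-led windows 53% and 7, and all RefSeq promoters had 53% and 7. These are shares of letters in small sets and describe the promoters only.

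The levels of the windows span a modest range, since both ends of the rank range were cut. The window of rank 50, the last one left out, held 810 fragments in the 2 libraries together, and the first member 806. The last member, rank 3050, held 157, as did the first window after it. At that count stood 5 members and 47 windows outside the set, so the lower limit is arbitrary among equals. The members had a median of 216 fragments, 88 in the vehicle and 132 in the sunitinib library, against a median of 7 over all distal windows. They held 1.69% of the vehicle and 2.01% of the sunitinib fragments on chromosomes 1 to 19. On the plot of the 2 libraries, the slanted lower edge of the cloud is the rank limit.

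**Figure D1:**
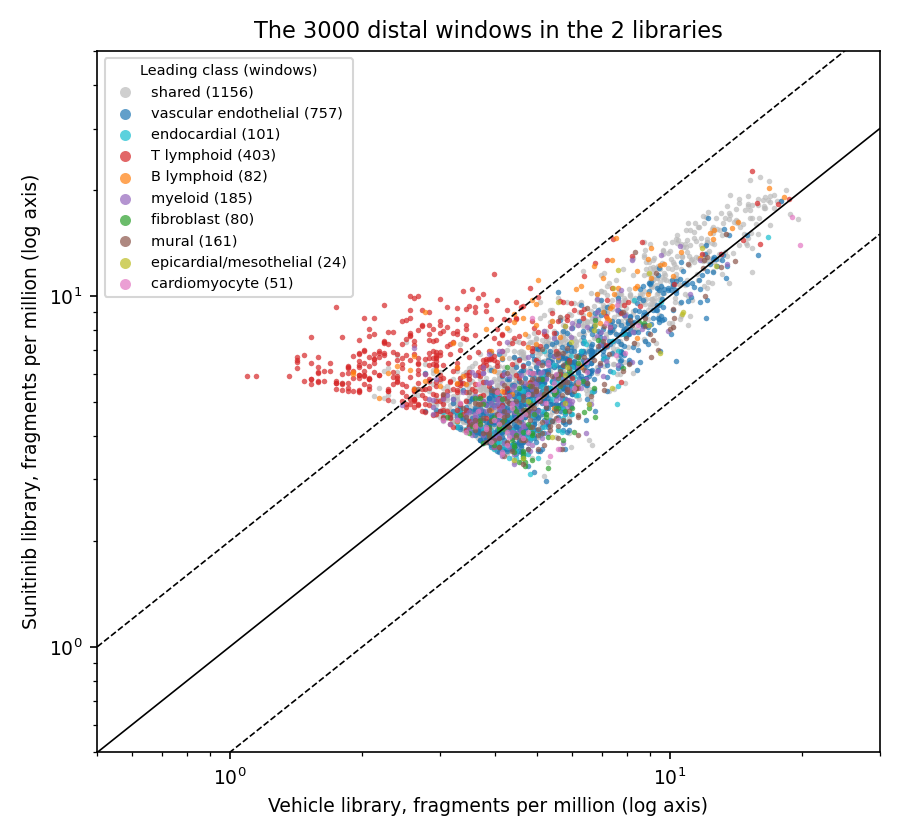
CPM (fragments per 1000000) in the vehicle library (x, log axis) and in the sunitinib library (y, log axis) for each of the 3000 windows, coloured by the class of nuclei that led the window. The solid line marks equal levels and the dashed lines a 2-fold difference. Of the 254 windows above the upper dashed line 217 were led by T-like nuclei, and no window lies below the lower one.

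The vehicle library held 18311989 fragments on chromosomes 1 to 19 and the sunitinib library 23171511. Barcodes called as nuclei numbered 2681 and 3837, with medians of 2160 and 2371 fragments, and held 43.8% and 54.3% of the fragments. The sunitinib plus Yoda1 library had 569478 fragments, with 12 nuclei, and stands apart: it entered neither the choice of windows nor the classes. The vehicle and sunitinib nuclei shared 22 barcodes, and no doublet caller was run. Nuclei were clustered on 5-kb tiles that hold none of the windows and named from marker genes: vascular endothelial-like (1062 vehicle, 1068 sunitinib nuclei), T-like (258, 1444), cardiomyocyte-like (274, 409), fibroblast-like (367, 286), myeloid-like (178, 142), mural-like (129, 132), endocardial-like (154, 67), B-like (80, 89) and epicardial- or mesothelial-like (45, 17), with 134 and 183 unnamed. The T-like share of nuclei was thus 9.62% in the vehicle and 37.6% in the sunitinib library. Fewer nuclei of a type and less open chromatin per nucleus cannot be told apart in any value over all barcodes.

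In nuclei the fragment lengths of the windows differed from those of distal DNA at large. There, 51.4% of the vehicle and 50.7% of the sunitinib fragments in the windows were shorter than the DNA wrapped around one nucleosome. In all distal windows these shares were 35.6% and 36.5%. In other barcodes the difference went the other way, with 62.02% and 58.75% in the windows against 64.52% and 62.62%. Over all barcodes the shares were 55.05% and 53.03%, against 53.98% and 50.20%. The densest 200 bp of each window were located in the vehicle library and the sunitinib fragments, which had no part in locating them, were read around that point. Short fragments were 9.55 times as dense within 100 bp of it as at 550 to 750 bp. Fragments up to the length of a nucleosome pair were 3.81 times as dense and still longer ones 1.60 times, with the last highest to either side of the centre.

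**Figure D2:**
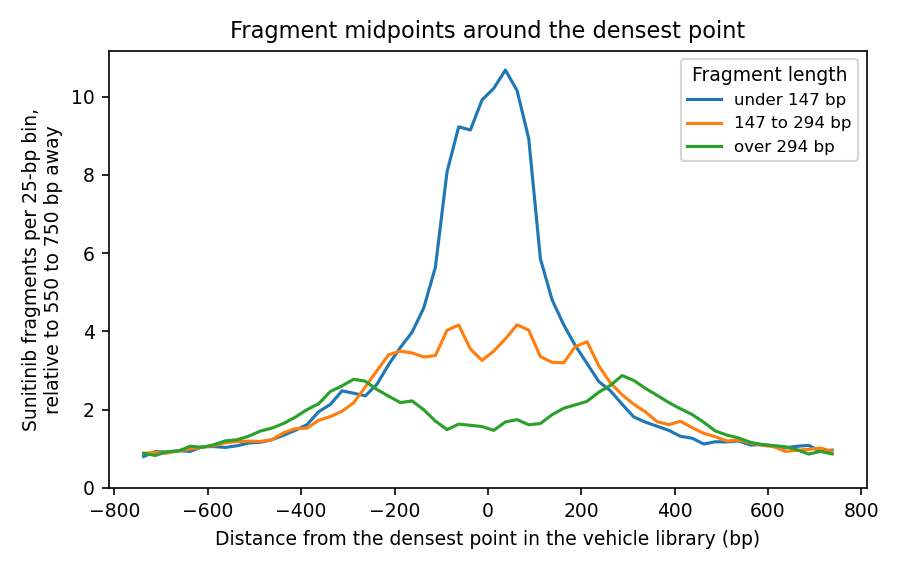
Sunitinib fragment midpoints per 25-bp bin (y, relative to the mean 550 to 750 bp away) by distance from the point that was densest in the vehicle library (x, bp), summed over the 3000 windows, for 3 classes of fragment length given in the legend. The shortest fragments peak at the centre, at 9.55 times the density of the edges averaged over 100 bp to each side, and the longest form a shoulder on each side.

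With the nuclei of both libraries pooled, most of the windows were at least 2-fold more open in one class than in the rest. A window was called led by a class where that class had the highest level, at least 2-fold that of all other nuclei with a 95% interval above 1, from at least 10 fragments. By this rule 1844 of the 3000 windows (61.5%) were led by a class and 1156 were shared. Vascular endothelial-like nuclei led 757, T-like 403, myeloid-like 185, mural-like 161, endocardial-like 101, B-like 82, fibroblast-like 80, cardiomyocyte-like 51 and epicardial- or mesothelial-like 24. Windows within 1 kb of a protein-coding start that were at least as accessible, 16381 of them, were led by a class in 22.8% of cases. Accessible windows outside both sets numbered 5400 and were led in 59.4%. The share in the distal windows was thus close to that of the other accessible windows and well above that at protein-coding starts, although the median pooled count was 216 in the distal windows and 379 at those starts.

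**Figure D3:**
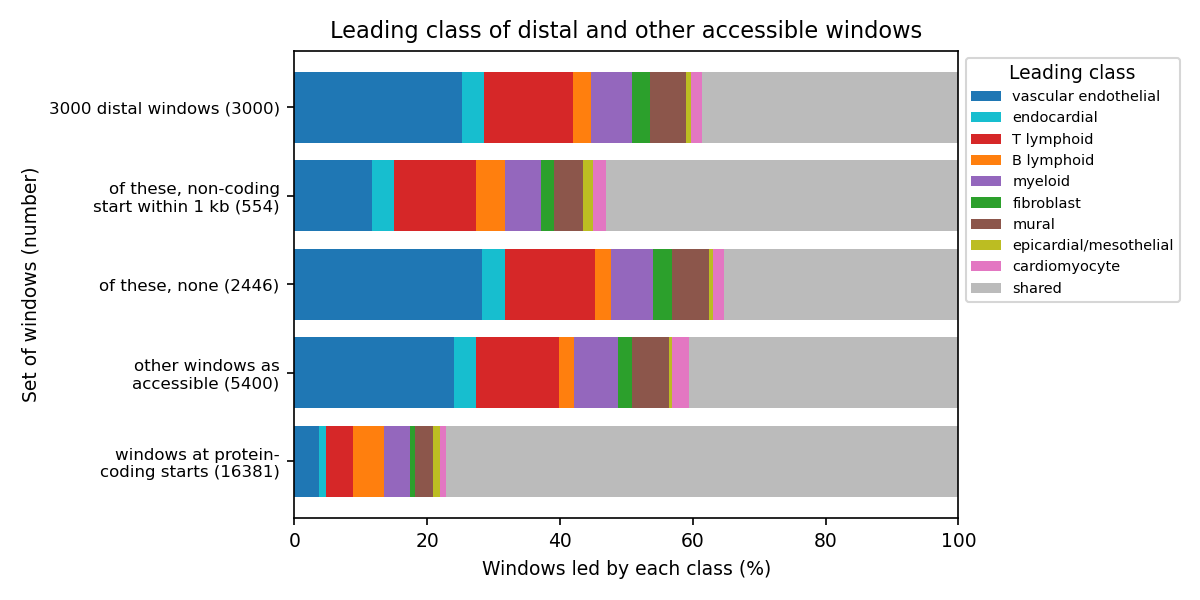
Share of windows led by each class of nuclei (x, %) in the 3000 distal windows, in those with and without a non-coding transcript start within 1 kb, and in 2 comparison sets of at least the same pooled count (y, with the number of windows). Shared windows make up most of the bar at protein-coding starts and 38.5% of the bar for the distal windows.

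The number of windows that a class leads depends on how many fragments the class contributes, so the counts do not rank the classes by their number of enhancers. The share of each class's own fragments that fell in the windows was highest in vascular endothelial-like nuclei at 3.38% (3.37% to 3.40%) and lowest in cardiomyocyte-like nuclei at 1.41% (1.39% to 1.43%), with T-like nuclei at 2.52% and fibroblast-like nuclei at 2.24%. That share depends on the choice of windows too, since they were ranked on all barcodes together, which favours classes with many fragments, and endothelial-like nuclei had the most. Cardiomyocyte-like nuclei also had a lower share of fragments at protein-coding starts, 16.2% to 17.8%, than the other classes, 20.8% to 28.2%.

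The assignment to classes was read again in the library that had not made it. Of 1358 windows led by a class in vehicle nuclei, 863 (63.6%) had their highest level in the same class in sunitinib nuclei, and of 1415 called in sunitinib nuclei, 936 (66.2%) had it in the same class in vehicle nuclei. The shares in the 2 directions were 76.15% and 73.75% for endothelial and 65.07% and 73.91% for T windows. For myeloid they were 53.33% and 40%, for mural 46.38% and 54.67% and for cardiomyocyte 40.38% and 60.98%. Fibroblast windows had 31.46% and 34.48%, endocardial 32.91% and 22.22% and B 100% (2 windows) and 31.58%. Of the 10 epicardial or mesothelial windows called in vehicle nuclei 2 had it in the same class. Windows called endothelial in vehicle were 2.03 log2 units higher (2.01 to 2.05) in endothelial-like than in other nuclei of the sunitinib library, and windows called T were 2.02 higher (1.98 to 2.05) in T-like nuclei. For cardiomyocyte the value was 1.25 (1.13 to 1.36), for fibroblast 1.21 (1.13 to 1.29) and for myeloid 1.37 (1.27 to 1.47). Called in sunitinib and read in vehicle nuclei, the values were 1.69 for endothelial, 2.58 for T, 1.39 for cardiomyocyte, 1.08 for fibroblast and 1.07 for myeloid windows, and mural windows gave 1.07 and 1.14 in the 2 directions. The 10 windows called epicardial or mesothelial in vehicle nuclei were 0.12 higher (-0.85 to 0.84), with none called in sunitinib nuclei. Endocardial windows were 0.90 higher (0.74 to 1.06) for the 79 called in vehicle and 0.25 higher (0.03 to 0.46) for the 18 called in sunitinib nuclei. In vehicle nuclei those 18 stood at 16.09 CPM a window in endocardial-like and at 19.52 in vascular endothelial-like nuclei. B windows were 0.79 higher (0.01 to 1.41) for 2 called in vehicle and 1.18 higher (0.84 to 1.48) for 19 called in sunitinib nuclei.

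**Figure D4:**
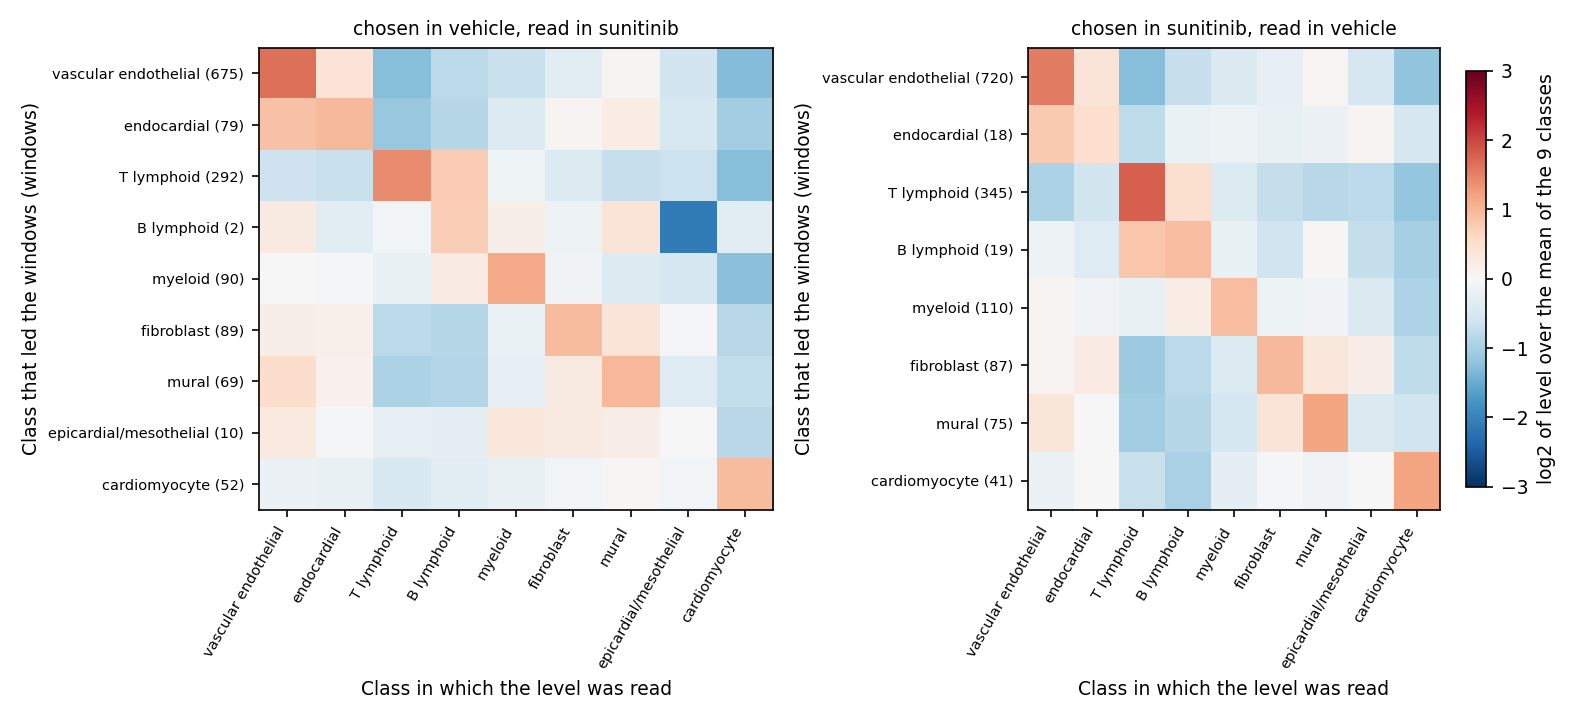
Level of class-led windows in each class of nuclei (columns), as log2 over the mean of the 9 classes, for windows grouped by the class that led them (rows, with the number of windows). Windows were grouped in one library and the level read in the other, so the diagonal is not fixed by the grouping, and it is clearest for endothelial and T windows.

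Several genes were nearest to groups of windows led by vascular endothelial-like nuclei. Kdr, the receptor of vascular endothelial growth factor, was the nearest gene of 6 windows, all 6 endothelial-led, with 629 vehicle and 767 sunitinib fragments in all and a log2 ratio of -0.05 (-0.21 to 0.10). Qk, which encodes an RNA-binding protein, was nearest to 9 windows of which 8 were endothelial-led (1070 and 1373 fragments, 0.02). Meox2, a homeobox factor of heart endothelium, was nearest to 4, all endothelial-led (403 and 520 fragments, 0.03). The intervals of all 3 groups include 0, with -0.10 to 0.14 for Qk and -0.16 to 0.22 for Meox2. All 3 lie below 0.24, the median ratio of all accessible windows.

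The highest ratio of endothelial-like to other nuclei was that of a window well away from protein-coding genes. The window chr8:68984001-68985000, 104 kb from Lpl, the lipoprotein lipase that acts on the capillary wall, held 106 fragments in endothelial-like and 21 in other nuclei, a log2 ratio of CPM of 3.48. Its counts in the libraries were 69 and 95 fragments (log2 ratio 0.12, -0.34 to 0.59).

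Cardiomyocyte-led windows were few. The one at the Mir1a-1hg promoter, 50.3 kb from Gata5, a cardiac GATA factor, held 45 fragments in cardiomyocyte-like nuclei and 18 in all others, a log2 ratio of CPM of 4.71. In the libraries it held 102 vehicle and 85 sunitinib fragments, a log2 ratio of -0.60 (-1.04 to -0.17), with the same sign in nuclei and in other barcodes. Within cardiomyocyte-like nuclei the counts were 22 and 23, a log2 ratio of -0.43. The next in order, chr17:9895001-9896000, lies 225 kb from Pabpc6 and chr12:85436001-85437000 lies 36.9 kb from Fos, an immediate early transcription factor, with class ratios of 3.21 and 2.57. No gene of the cardiomyocyte marker list of 10 was the nearest gene of any window in the set.

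In the other classes the leading windows also had neighbours with known roles. Nr2f2, a factor of venous and atrial identity, lies 12.9 kb from chr7:70346001-70347000, which had the highest endocardial ratio, 2.63. Adamts1, a secreted protease, lies 44.5 kb from chr16:85756001-85757000, which had the highest mural ratio, 2.95, and Trib1, which is needed for some tissue macrophages, lies 79.4 kb from chr15:59728001-59729000, which had the highest myeloid ratio, 3.30. Their log2 ratios of sunitinib to vehicle were -0.43 (-0.84 to -0.01), -0.37 (-0.79 to 0.05) and -0.00 (-0.43 to 0.43).

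Neighbouring genes and windows matched in class more often than windows at large. The nearest gene was itself most accessible in endothelial-like nuclei for 24.8% of endothelial-led windows, against 8.67% of the other windows. For T-led windows and T-like nuclei the shares were 30.5% and 12.1%, for mural 24.0% and 10.2%, for myeloid 28.7% and 14.0%. For most windows of each class the nearest gene was nevertheless highest in another class. These shares describe the same nuclei that gave the calls.

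The windows also lay in groups. Their median distance to the nearest protein-coding start was 38.7 kb, against 162.5 kb for every 50th distal window, and 33.0% lay within 25 kb, against 11.9%. Directly adjacent to another member were 806 (26.9%), and 1726 lay in groups linked by gaps of at most 25 kb. Among 444 neighbouring pairs in such groups with a leading class each, 255 (57.4%) had the same one, against 24.1% of all pairs of class-led windows. Adjacent windows can divide the fragments of a single open site between them, so they are not independent.

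The group with most members, 20 in chr19:5786001-5849000, covers the neighbourhood of Malat1. Cardiomyocyte-like nuclei led 6 of the 20, of 51 such windows in all, and 8 were shared. The group held 2229 vehicle and 3301 sunitinib fragments, a log2 ratio of 0.23 (0.15 to 0.31). The Malat1 promoter window itself, chr19:5802001-5803000, held 184 and 295 fragments (0.34, 0.07 to 0.62). The group in chr8:84187001-84209000, which ends with the miR-23a cluster printed above, had 11 members, 1776 and 2573 fragments and a log2 ratio of 0.20 (0.11 to 0.28). The group of 9 in chr11:117076001-117102000 beside Sec14l1 was the one with most endothelial-led members among the 12 largest groups, 6 of 9, and its ratio of 0.06 (-0.05 to 0.17) was the lowest of the 12.

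Genes without a protein product accounted for part of the set. Of the windows, 818 (27.3%) overlapped the body of a non-coding gene, against 12.7% of every 50th distal window, and 547 of these overlapped a long intergenic non-coding RNA. A non-coding transcript start lay within 1 kb of 554 (18.5%, against 3.69%). Of those 554, 46.9% were led by a class, and of the 2446 others 64.8%. Windows at non-coding starts therefore stood between the other distal windows and the protein-coding promoters in this respect.

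The question the design poses is what sunitinib changes, and at the distal windows the difference between the libraries was concentrated in those led by T-like nuclei. On the scale of log2 CPM with 0.5 added to each count, 254 of the 3000 windows were at least 2-fold higher in the sunitinib library, or 8.47%. The background share was 3.51% over all 24878 windows of chromosomes 1 to 19 at least as accessible as the last member, and 8.49% over the 3097 distal ones. The former include the members, and the latter are little else than the members, with the 50 windows left out and the 47 at the lowest count, so that the second share could hardly differ. None was 2-fold lower, against a background share of 0 in both sets. The median log2 ratio of the windows was 0.20, and that of the 24878 windows 0.24. Fragments summed over the set gave 0.25 (0.24 to 0.26), over windows at protein-coding starts 0.26 and over the other accessible windows 0.23. All 3 sets thus took a larger share of the sunitinib library over all barcodes, by about the same amount, and single windows are read against that shift. In nuclei alone the median of the windows was 0.02 and the summed ratio 0.06, and in the other barcodes they were 0.25 and 0.30.

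Split by leading class, the windows separated. The class calls pooled the nuclei of both libraries, with 258 vehicle and 1444 sunitinib nuclei in the T-like class. Fragments of these nuclei are also among the counts compared, so the split is a description. Of 403 T-led windows 217 were at least 2-fold higher and the median log2 ratio was 1.09, with single windows from -0.44 to 2.41. B-led windows had a median of 0.56 and 16 of 82 were 2-fold higher. Within B-like nuclei their summed ratio was -0.06 (-0.24 to 0.12), and only 4 of the 82 held 20 or more fragments there. B-like nuclei held 2587 vehicle and 2474 sunitinib CPM of the class in these windows, and T-like nuclei came next with 1503 and 1476. With at least 3000 fragments a nucleus, 0 windows were B-led. Shared windows had a median of 0.26, close to that of all accessible windows, with 17 of 1156 past 2-fold. Endothelial-led windows had a median of 0.05 with 1 of 757 past 2-fold, myeloid-led 0.17 with 2 of 185, mural-led 0.00 with 1 of 161, cardiomyocyte-led 0.02, fibroblast-led -0.02 and endocardial-led -0.09, none of the last 3 with a window past 2-fold. Together the 403 T-led windows held 26022 vehicle fragments (1421 CPM) and 65050 sunitinib fragments (2807 CPM), a log2 ratio of 0.98 (0.96 to 1.00).

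**Figure D5:**
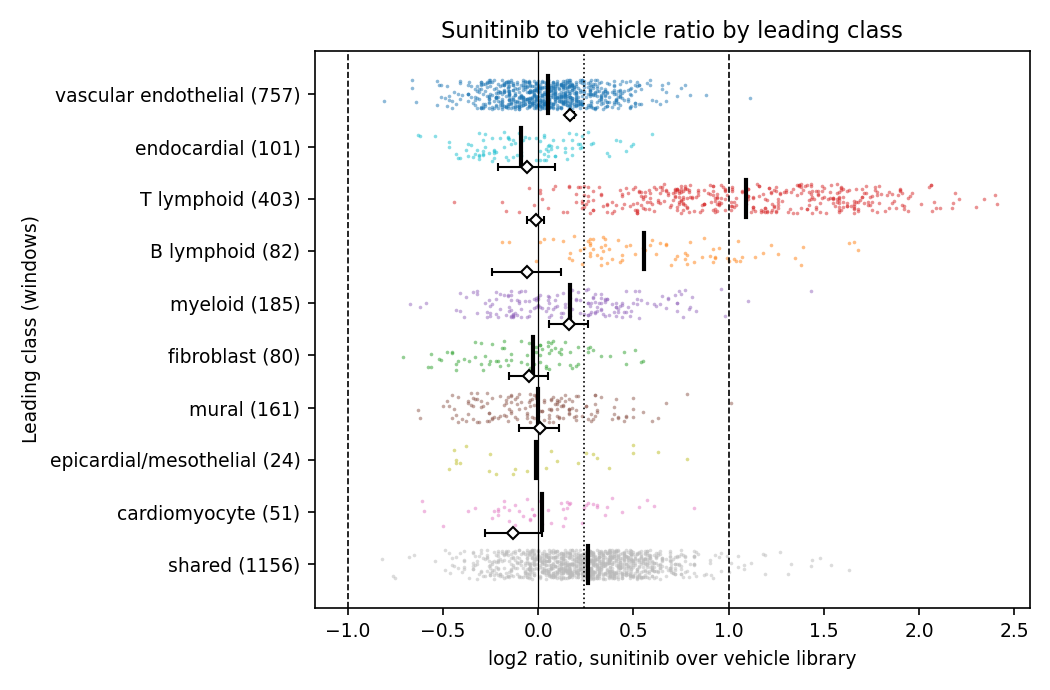
Log2 ratio of sunitinib to vehicle (x) for each window by leading class (y, with the number of windows). Points are windows over all barcodes, black bars their medians, and open diamonds the ratio of the summed fragments within nuclei of the leading class only, with 95% intervals for counting error; no diamond is drawn for the class with fewer than 50 nuclei in a library. The dotted line is the median of all accessible windows, 0.24, and the dashed lines are 2-fold. T windows lie right of the rest over all barcodes, and their diamond lies at -0.01.

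Read within their own class, the T-led windows showed no difference of that size. Within T-like nuclei they held 7738 CPM of the class in the vehicle and 7659 in the sunitinib library, a log2 ratio of -0.01 (-0.06 to 0.03), from 4470 and 27452 fragments. Chosen in the vehicle nuclei alone, the T-led windows gave -0.28 (-0.33 to -0.24) within T-like nuclei, and chosen in the sunitinib nuclei alone 0.03 (-0.02 to 0.08). Each of these choices favours the library that made it. The number of T-like nuclei was 258 in the vehicle and 1444 in the sunitinib library, and its part in the ratio over all barcodes was not tested. In barcodes not called as nuclei the median of the T-led windows was 1.08. In nuclei outside the T-like and B-like classes, 86 windows of the set were 2-fold higher and the median of the T-led windows was 0.33. The share of all accessible windows past 2-fold in these nuclei was not computed, so the 86 cannot be set against it. Within fibroblast-like nuclei the T-led windows were higher by 0.50 (0.41 to 0.60), within endothelial-like nuclei by 0.28 (0.22 to 0.34) and within cardiomyocyte-like nuclei by 0.22 (0.08 to 0.35). Whether fragments of T-like nuclei in other barcodes contribute to these last values was not tested.

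Within vascular endothelial-like nuclei, present in nearly equal numbers, the endothelial-led windows held 12971 CPM of the class in the vehicle and 14564 in the sunitinib library, a log2 ratio of 0.17 (0.15 to 0.19). All windows of the set held 3.20% of the vehicle and 3.54% of the sunitinib fragments of these nuclei (0.14, 0.13 to 0.16). Windows at protein-coding starts held 24.2% and 26.3% (0.12, 0.11 to 0.12), a difference of like size. Cardiomyocyte-led windows within cardiomyocyte-like nuclei gave -0.13 (-0.28 to 0.02), and windows at protein-coding starts in the same nuclei -0.14 (-0.15 to -0.13). For myeloid the value was 0.16 (0.06 to 0.26), for fibroblast -0.05, for mural 0.01 and for endocardial -0.06. The myeloid value turned to -0.23 (-0.36 to -0.10) with windows chosen in vehicle nuclei alone and was 0.65 (0.54 to 0.77) with windows chosen in sunitinib nuclei alone, and those of mural, fibroblast, endocardial and cardiomyocyte windows moved in the same 2 directions. A choice made in one library favours a high level in that library, so these moves are no result about sunitinib.

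The windows with the highest sunitinib to vehicle ratios were all T-led. A member needed at least 157 fragments in the 2 libraries together. Windows with as few vehicle fragments as those named here and below could thus enter only through a high sunitinib count, and their ratios are a description. The last member by rank, chr2:19016001-19017000, 17.7 kb from 4930426L09Rik, held 20 vehicle and 137 sunitinib fragments, a log2 ratio of 2.41 (1.75 to 3.19). The window chr12:73382001-73383000, over the long non-coding RNA D830013O20Rik, held 32 and 216, a log2 ratio of 2.40 (1.88 to 3.00). The window chr11:3310001-3311000, 11.7 kb from Patz1, a zinc finger factor expressed in T cell development, held 21 and 137, a log2 ratio of 2.34 (1.70 to 3.10). Each of these was higher both in nuclei and in other barcodes, as were all 254 windows past 2-fold.

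The window chr2:101552001-101553000 held 28 vehicle and 177 sunitinib fragments, a log2 ratio of 2.30 (1.74 to 2.95). Its nearest gene is B230118H07Rik at 23.1 kb, and Rag2 and Rag1, which encode the recombinase that assembles antigen receptor genes in developing lymphocytes, lie 71.7 kb and 96.5 kb away. In T-like nuclei it held 124 fragments and in all other nuclei 13, a log2 ratio of CPM of 5.19. The bodies of Rag1 and Cd8b1, both among the genes that lead the T-like cluster, were 3.51 and 3.69 log2 units more accessible in T-like than in other nuclei. Rag1 stood at 74.4 CPM in the vehicle T-like nuclei and at 61.4 in the sunitinib T-like nuclei, from 43 and 220 fragments, and Cd4 at 84.8 and 82.3. Cd3g stood at 39.8 and 68.1 CPM in vehicle and sunitinib T-like nuclei, Cd3e at 50.2 and 74.2, Rag2 at 41.6 and 54.7, Cd8b1 at 100.4 and 121.1, Cd8a at 45.0 and 38.5 and Ptcra at 20.8 and 21.2. Vehicle counts behind these 6 were 12 to 58 fragments. Rag2 was only 1.20 log2 units more accessible in T-like than in other nuclei. Open Rag1, Cd4 and Cd8 genes are a known feature of thymic T cell precursors, and the labels name heart only. The origin of these nuclei was not tested. These genes were looked up after the leading genes of the cluster were seen.

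Other T-led windows were nearest to genes of the T lineage or lay at some distance from one. The window chr5:65910001-65911000 is nearest to Chrna9, at 23.9 kb, and lies 47.0 kb from Rhoh, a GTPase of blood cells needed for T cell receptor signalling. It had the highest T ratio, 5.31, with 42 vehicle and 169 sunitinib fragments (1.66, 1.17 to 2.19). The window chr17:52282001-52283000 is nearest to Kcnh8, at 320 kb, with Satb1, a chromatin organiser of thymocytes, at 449 kb. Both Rhoh and Satb1 were looked up after the windows were seen. It held 41 and 219 (2.06, 1.59 to 2.60). Lef1, a factor of early T cells, was the nearest gene of 3 windows, all T-led, with 154 and 539 fragments in all (1.46, 1.21 to 1.74). Tcf7, its relative, had 1 window with 62 and 240 (1.60, 1.20 to 2.04) and Bcl11b, which fixes T cell identity, 1 with 35 and 135 (1.59, 1.06 to 2.19). The one window over a T cell receptor gene, Trbv31, held 29 and 145 fragments (1.96, 1.40 to 2.61). In each of these the sunitinib count exceeded the vehicle count by far more than the difference in depth. Windows with so few vehicle fragments could enter the set only through a high sunitinib count, so this excess is a description.

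The windows nearest to listed genes are set beside the shares past 2-fold of 8.47% in the whole set and 3.51% in all accessible windows. Of the 15 windows nearest to 7 of 12 lymphoid transcription factors, 9 were T-led, 9 were at least 2-fold higher and the median log2 ratio was 1.18. Lef1, Tcf7 and Bcl11b, given above, had the highest ratios of this list. Gata3 had 3 windows, 2 of them T-led (0.75, 0.48 to 1.02), and Runx3 4, 1 of them T-led (0.74, 0.53 to 0.95). Tox had 2, 1 of them T-led (0.26, 0.06 to 0.48), and Tcf12 had 1 shared window (0.14, -0.07 to 0.36). Of the 29 windows nearest to 7 of 12 endothelial transcription factors, 14 were endothelial-led, 2 were 2-fold higher and the median was 0.28. Ets1 and Fli1, factors of both blood and endothelial cells, had windows of both kinds: among the 8 of Ets1, 5 were endothelial-led and 2 T-led, with ratios from 0.19 to 1.95. The 8 windows of Klf4, a flow-responsive factor of endothelium, lay between -0.31 and 0.08, and the 5 of the mesenchymal list, 4 at Meox2 and 1 at Nr2f2, had a median of -0.00. The 9 windows of 3 cardiac muscle factors, 6 of them at Mef2a, had a median of 0.22.

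The lowest ratios were small by comparison. The window chr15:83367001-83368000, 16.8 kb from Arfgap3, held 122 vehicle and 87 sunitinib fragments, a log2 ratio of -0.82 (-1.24 to -0.42), and was shared. The endothelial-led window chr6:92988001-92989000, 44.5 kb from Adamts9, a protease of vessels and heart, held 189 and 151 (-0.66, -0.98 to -0.35), and within endothelial-like nuclei 104 and 77 fragments (-0.69). The fibroblast-led window chr4:150707001-150708000 held 97 and 75 (-0.71, -1.17 to -0.26). Of the 8 windows with the lowest ratios among those with one sign in nuclei and other barcodes 4 were shared, 2 endothelial-led, 1 fibroblast-led and 1 myeloid-led, and their intervals all lay below 0. The lowest endothelial-led window, at -0.81, is not among these 8, since its ratio had opposite signs in nuclei and in other barcodes.

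The highest-ranked windows included some with few fragments in nuclei. The first, chr5:64764001-64765000, 38.4 kb from Klf3, held 281 and 525 fragments, of which 31 were in T-like nuclei and 41 in other nuclei. The window of rank 55, chr9:110281001-110282000, lies over Mir6236 and held 342 and 437 fragments, of which 69 were in T-like and 114 in other nuclei. Of the fragments in a window a median of 96.2% had a start and end of their own or were the first at that position, and 70 windows were under 90%. The lowest was chr15:21656001-21657000 at 33.3%. Counting each position once left 2954 of the 3000 windows in the set.

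The sunitinib plus Yoda1 library, which chose none of the windows, was too thin for single windows. From its 252940 fragments with at least 100 read pairs, a limit set because 209296546 read pairs lay behind its 583792 fragments, 4275 or 1.69% fell in the set, against 2.01% in the sunitinib and 1.69% in the vehicle library. T-led windows held 227 of these, lower than in the sunitinib library by a log2 ratio of -1.64 (-1.84 to -1.46) and than in the vehicle library by -0.66 (-0.86 to -0.47). Endothelial-led windows held 1124 and differed by -0.05 (-0.14 to 0.04) from the sunitinib library, and cardiomyocyte-led windows held 105 and differed by 0.55 (0.25 to 0.82). At 0 stood 989 windows, which at this depth says nothing about any one of them. One cardiomyocyte-led window, chr1:24612001-24613000, lies over the pseudogenes Gm10222, Gm28438 and Gm28439. It held 376 of the 9413 fragments of any read-pair number in the set, and 1 of those with at least 100 read pairs. All cardiomyocyte-led windows together held 585 fragments of any read-pair number. This library was also made with another version of the pipeline, so library, treatment and version cannot be told apart.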

How the data were processed

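ATAC-seq fragments of 3 libraries were analysed, 1 per group. The authors made the deposited fragment files with cellranger-arc 2.0.0 (vehicle and sunitinib) or 2.0.2 (sunitinib plus Yoda1) against an mm10 reference, per the file headers. Cell Ranger and Signac are named in the submitters' processing notes, with no version. Each deposited line is one unique fragment with its barcode and a count of its read pairs. Gene expression files were not analysed here.

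Each fragment was counted once, at its midpoint, in windows of 1 kb on chromosomes 1 to 19. Protein-coding gene bodies and transcript starts came from GENCODE M21 on mm10. The members, lists and alternatives were chosen with earlier results of these data known. Nuclei were barcodes with at least 1000 fragments, an enrichment at protein-coding starts of at least 4 and a ratio of nucleosome-length to shorter fragments under 4. Latent semantic indexing of the 60000 most often open 5-kb tiles, after the 50 most open ones and the 2558 tiles that hold a member were left out, gave 30 components, and Leiden clustering used 20 neighbours and resolution 0.8 (scikit-learn 1.9.0, leidenalg 0.10.2). A cluster was named where at least 3 markers were at least 2-fold more accessible than in other nuclei, in gene bodies plus 2 kb upstream. Clusters are therefore "like" a cell type and no more. The mural cluster also had 4 of 10 fibroblast markers, the endocardial one 3 of 6 lymphatic endothelial markers, and the B cluster 3 of 6 natural killer and 3 of 12 T markers. The unnamed cluster had an enrichment at starts of 8.29.

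Ratios are log2 of counts scaled to 1000000 fragments of chromosomes 1 to 19, with 0.5 added to each count. Intervals are exact conditional 95% intervals for counting error. No p-value is given, since each group has 1 library. Windows named in the text are the 5 highest ranked, the 8 highest and 8 lowest ratios with the same sign in nuclei and other barcodes, the 3 highest class ratios per class from at least 20 fragments, and the densest groups. Windows beside microRNA genes, promoters or listed genes were named for those genes. Groups join members at most 25 kb apart.

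The planned motif search in whole windows needed a genome sequence, which was not used here. RefSeq promoters were searched instead, and alternatives with masked repeats or shorter motif regions were not run. RefSeq sequences of chromosome 18, where 135 members lie, were left out. The scripts were tested on simulated data (Python 3.11.15, numpy 2.4.6, scipy 1.17.1). Some windows that the naming rule selects are not reported here.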

Additional observations from a re-analysis of the deposited data

How the results depend on the processing

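Of 117 alternative values, 58 stayed close to those reported, 58 moved and 1 changed sign. No paired analysis was possible because each group has 1 library. Against 254 windows at least 2-fold higher, 0 lower, a median of 0.20 and a summed log2 ratio of 0.25, nuclei alone gave 225, 5, 0.02 and 0.06. Barcodes not called as nuclei gave 350, 25, 0.25 and 0.30, nuclei outside the lymphoid classes 86, 3, 0.09 and 0.08, and fragments shorter than a nucleosome 334, 3, 0.26 and 0.30. Scaling to all distal fragments gave a median of 0.30 and a sum of 0.35. At a 1.5-fold limit 553 were higher and 19 lower. Shares over all accessible windows were computed for the main setting only, so these counts cannot be set against a background. At a 3-fold class limit 1123 windows were led by a class in place of 1844. With at least 3000 fragments a nucleus 1489 of the 3000 were led, with vehicle nuclei only 1358 and with sunitinib nuclei only 1415. The majority thus held for the pooled nuclei and not under these settings. With the deepest 5% of nuclei removed, the ratio within the own class was 0.20 for endothelial and 0.07 for T windows. With class-led windows chosen on vehicle nuclei only it was 0.11 for endothelial, -0.54 for endocardial, -0.28 for T, -1.04 for B (2 windows), -0.35 for fibroblast, -0.61 for mural and -0.43 for cardiomyocyte windows, and for myeloid windows it turned from 0.16 to -0.23. Chosen on sunitinib nuclei only, an alternative added after seeing the data, it was 0.19, 1.21, 0.03, 0.75, 0.24, 0.44 and 0.17 in the same order, and 0.65 for myeloid windows. In all 8 classes read this way the value was higher with windows chosen in sunitinib nuclei than with windows chosen in vehicle nuclei. Windows chosen for a high level in one library favour that library, so this order is no result about sunitinib. Counting fragment ends kept 2885 of the 3000 windows, averaging the scaled counts 2950, leaving out the first 200 windows 2850, shifting the grid by 500 bp 2472, and a distance of 20 kb 2255. The depth, with a median of 88 vehicle fragments a window, limits single windows within one class, and the counting intervals say nothing of differences between animals.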

Other observations

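Genes with the largest numbers of windows were not all genes of one cell type. S1pr1, a sphingosine 1-phosphate receptor of endothelium and lymphocytes, was nearest to 9 windows, 5 of them endothelial-led, with 902 vehicle and 1216 sunitinib fragments and a log2 ratio of 0.09 (-0.03 to 0.22). Klf6, a zinc finger factor, was nearest to 8, of which 4 were endothelial-led and 2 myeloid-led, with 917 and 1047 fragments. Its ratio of -0.15 (-0.28 to -0.02) was the lowest among the 25 genes with most windows. Chd2, a chromatin remodeller, was nearest to 10 windows, 3 of them T-led, with 903 and 1693 fragments and a ratio of 0.57 (0.45 to 0.69). Klf3 was nearest to 10, with 960 and 1728 fragments and a ratio of 0.51 (0.39 to 0.62).

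For some windows the leading class went against the nearest gene. Ebf1, a B cell factor, was nearest to 2 windows that were both T-led, with 102 vehicle and 316 sunitinib fragments (1.29, 0.97 to 1.63). Dcn, a fibroblast gene, was nearest to 1 window that was B-led, with 166 and 318 fragments (0.60, 0.32 to 0.88). Egfl7, an endothelial gene, was nearest to 1 T-led window, with 56 and 110 fragments (0.63, 0.16 to 1.13).

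The 50 windows left out at the top of the ranking range from 25489 fragments in the 2 libraries together down to 810, next to the 806 of the first member. The first 6 are adjacent, at chr17:39843001-39849000, over Gm26917, Gm42418 and an annotated ribosomal RNA. They held between 4231 and 11614 vehicle and between 6109 and 14008 sunitinib fragments each, with log2 ratios from -0.09 to 0.19. The window chr13:9011001-9012000, 14.9 kb from Gtpbp4, held 2195 vehicle and 2862 sunitinib fragments, and 367 in the sunitinib plus Yoda1 library. The window chr9:35305001-35306000, 37.1 kb from Rpusd4, held 1136 and 1354, and 437 in the sunitinib plus Yoda1 library, the highest count there among the 50.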
